A study of Caenorhabditis elegans with 24 samples.

Results

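TDP-1 is the Caenorhabditis elegans ortholog of TDP-43, an RNA-binding protein that favours UG repeats and acts largely in the nucleus on introns and newly made transcripts. Because such a protein can be cross-linked to the genes that are being transcribed, its position on nascent RNA can be read from chromatin immunoprecipitation (ChIP), and treatment of the extract with RNase removes the part that depends on RNA. Chromosome X differs from the 5 autosomes of the worm in that XX hermaphrodites lower its transcription through dosage compensation, and in that it is largely silent in the germ line. Autosomes are also divided into gene-rich centres and repeat-rich arms, a division that is much weaker on X.

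The regions described here are the shared TDP-1 peaks on chromosome X. A replicate 2 peak on X was taken when it overlapped by 1 bp or more a replicate 1 peak and overlapped no peak of the RNase-treated library. Of the 547 replicate 2 peaks on X, 380 met this rule, out of 3204 replicate 2 peaks and 2244 shared peaks on all 6 nuclear chromosomes. No measured value beyond the peak calls entered the choice.

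The TDP-1 ChIP comprised 2 libraries and 1 library from RNase-treated extract, all from whole young adults at 20°C. The labels give the strain of all 3 as tdp-1(ok803), a deletion allele of the gene whose product the antibody recognises, and the methods name no strain for the ChIP, so the strain is uncertain. For genes under the peaks, the poly(A) RNA of L4 larvae (20°C) and the J2-IP of young adults (15°C) were also read, each with 3 libraries of the wild-type strain and 3 of tdp-1(ok803), beside 1 input library per genotype. J2 is an antibody against double-stranded RNA.

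The depth of the ChIP libraries is unknown, and the replicates differed widely in the number of peaks called. Replicate 1 held 16028 peaks across the 6 chromosomes, and the RNase-treated library held 168. On X the numbers were 2562 in replicate 1, 547 in replicate 2 and 25 after RNase. The RNase-treated library also served as the control for peak calling in both replicates, so that a low number of peaks in it and a high score elsewhere are not independent of each other.

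Shared peaks were about as dense on X as on the autosomes. X carried 21.5 shared peaks per Mb, over a span of 17.7 Mb from the first to the last replicate 1 peak. Chromosomes V and I carried the lowest and the highest autosomal density, 17.3 and 27.9 per Mb, and the mean of the autosomes was 23.1 ± 4.06 per Mb (SD, n = 5). X ranked 4 of 6, next to chromosome IV at 21.3 per Mb. An exact two-sided permutation test over which of the 6 chromosomes was X gave p = 0.833, where 6 chromosomes allow no p below 0.167. Chromosomes are not biological replicates, and this test and the 4 like it below describe the rank of X among them.

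Together the 380 peaks covered 410 kb, or 2.32% of X, against 1.83% of V and 2.73% of I. The share of replicate 2 peaks that qualified was 69.5% on X (95% Wilson interval 65.5% to 73.2%, counting error only), within the autosomal range of 67.5% to 72.2% (exact permutation p = 1). Seen from replicate 1, 14.2% of its X peaks overlapped a replicate 2 peak, a larger share than on any autosome (11.5% to 13.6%).

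**Figure D1:**
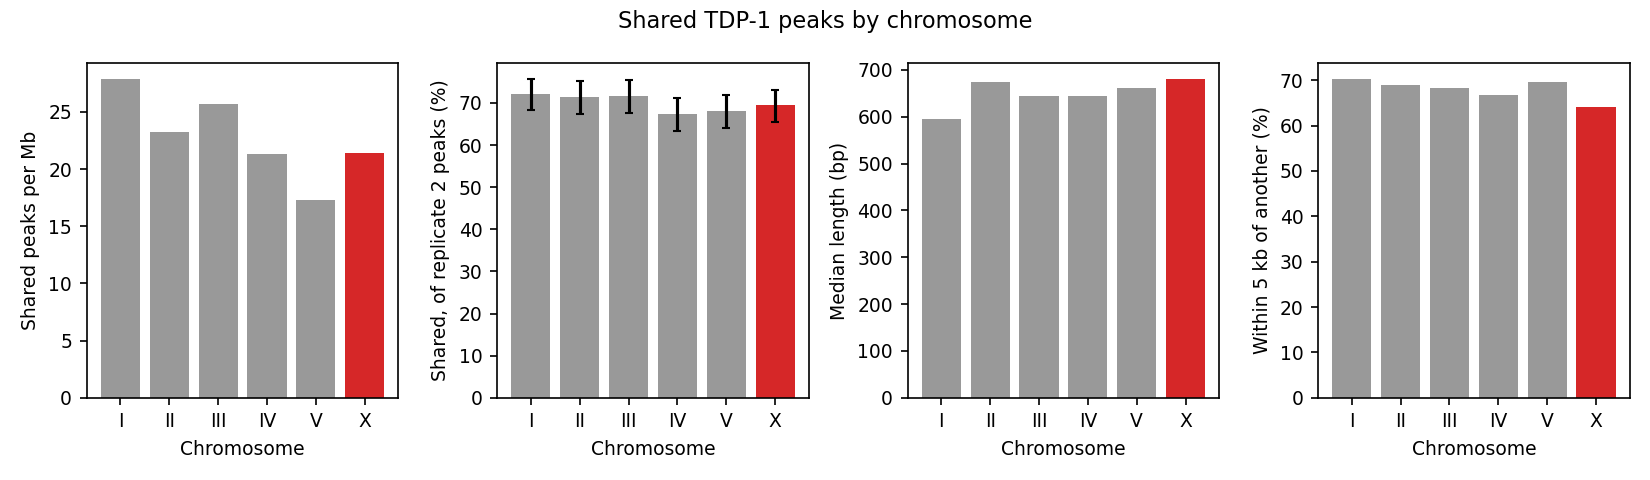
Bars give, for each chromosome (X in red, autosomes in grey), the number of shared TDP-1 peaks per Mb, the percentage of replicate 2 peaks that were shared (error bars, 95% Wilson intervals), the median replicate 2 length in bp and the percentage of shared peaks within 5 kb of another. X lies inside the autosomal range for the first pair of measures, has the longest median length (680 bp) and the lowest percentage within 5 kb (64.2%).

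The peaks on X were short for the most part, with a long tail. Their replicate 2 length had a median of 680 bp (quartiles 419 and 1218 bp), ran from 89 to 15495 bp, and was under 300 bp in 38 peaks. The autosomal medians ran from 594 bp on I to 675 bp on II, so that X was the highest by 5 bp (mean of the autosomes 644 ± 30.7 bp, SD, n = 5, exact permutation p = 0.333). Peaks of 5 kb or more numbered 7 on X and 1 to 6 on each autosome.

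The longest shared peak of all 6 chromosomes lay on X, at chrX:11468338-11483832 (WS220), and measured 15495 bp in replicate 2. It overlapped a single replicate 1 peak of 11608 bp, which it contained whole, and stood at the score of 3100 in both replicates. The longest on an autosome measured 11152 bp, on chromosome I. The second longest on X, chrX:4137023-4148126, measured 11104 bp and joined 5 separate replicate 1 peaks, which filled 8902 bp of it. The next was chrX:15269512-15280050 (10539 bp), which held a replicate 1 peak of 9049 bp and lay 58.2 kb from the nearest other shared peak. The last pair of the 5 longest measured 6081 bp (chrX:15338239-15344319) and 5540 bp (chrX:9551095-9556634), with 3 and 2 replicate 1 peaks. All 5 scored 3100 in both replicates, a score that also marked the strongest peaks elsewhere on X. No genome sequence of build WS220 was used here, so neither the sequence nor the repeats under these stretches are shown.

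The score given by the peak caller MACS is the log10 of the p-value times minus 10, so 50, the lowest score in either replicate, stands for a p-value of 1e-05. On X the replicate 2 score had a median of 286 (quartiles 103 and 1088) and reached 3100 in 42 of the 380 peaks (11.1%), against 9.05% on I to 13.5% on V. The score of 3100 was treated as a cap, although some scores exceed it, so peaks at or above 3100 are not ordered by strength. The autosomal medians ran from 212 on I to 288 on III, with a mean of 257 ± 31.0 (SD, n = 5), and X ranked 2 of 6 (exact permutation p = 0.5). The 10 highest, with ties at 3100 ordered by the replicate 1 score and then by length, comprised the 5 longest peaks and chrX:17625474-17629340 (3867 bp, the only X peak of the 10 with a replicate 1 score above 3100, at 3133), chrX:4979485-4984788 (5304 bp), chrX:3111594-3116786 (5193 bp), chrX:1515592-1520500 (4909 bp) and chrX:8231938-8236290 (4353 bp). They were spread over the whole chromosome, from the second to the last Mb, and 6 of the 10 had no other shared peak within 5 kb.

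Length and score rose together among the 380 peaks (Spearman's rho 0.93 across peaks, which share a library and a caller that tests longer stretches with more reads). The 89 peaks scoring under 100 had a median length of 314 bp and made up 7.36% of the covered sequence. The 189 peaks from 100 to under 1000 had a median length of 660 bp, and the 60 from 1000 to under 3100 one of 1457 bp. The 42 peaks at 3100 had a median length of 2500.0 bp and made up 35.5% of the covered sequence.

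At the lower end stood chrX:6296324-6296723 (400 bp, score 50), chrX:9106412-9106696 (285 bp, score 50.04) and chrX:12608790-12609029 (240 bp, score 50.7). Each lay wholly inside a replicate 1 peak, and these partners scored 315, 1599 and 1763. Containment of a weak replicate 2 peak was common: 71 of the 89 peaks scoring under 100 lay wholly inside replicate 1 peaks of any score, against 6 of the 42 peaks at 3100. The median replicate 1 score was 627 for the 89 peaks and 3100 for the 42. Shorter peaks are more easily contained, and the median lengths were 314 and 2500 bp.

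**Figure D2:**
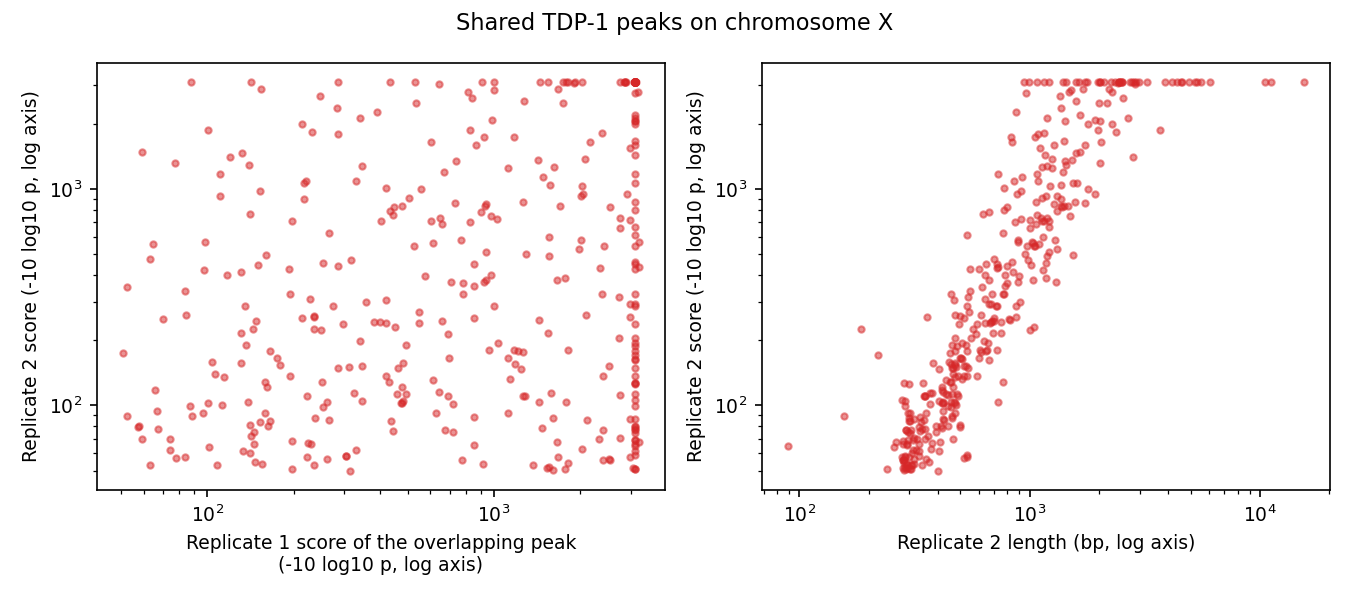
Each point is 1 of the 380 shared peaks on X. The left panel plots the replicate 2 score against the highest replicate 1 score of the overlapping peaks, and the right panel plots it against the replicate 2 length in bp, all on log axes; points pile up at 3100 in both replicates, the scores of the replicates are loosely related (Spearman's rho 0.23), and score and length are closely related (0.93).

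The replicates ordered the X peaks only loosely. Across the 380 peaks the Spearman's rho between the replicate 2 score and the highest score of the overlapping replicate 1 peaks was 0.23, and Pearson's r of the log10 scores was 0.24. On the autosomes the same rho ran from 0.07 on IV to 0.27 on V. Of the 78 X peaks whose replicate 1 partner scored 3100 or more, 22 stood at 3100 in replicate 2 as well and 16 scored under 100 there. Of the 27 whose partner scored under 100, 14 scored under 100 in replicate 2 and 1 stood at 3100.

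The replicates also placed X differently among the chromosomes. The median of the overlapping replicate 1 score was 853 on X, below every autosome (869 on IV to 1321 on III), whereas the replicate 2 median was the second highest. Replicate 1 peaks under the X peaks were short too, with a median summed length of 1580.5 bp against 1626 to 1955.5 bp. When all replicate 1 peaks without an RNase peak were taken, X had a median score of 155 and a median length of 862 bp, both below every autosome (188 to 209, and 978 to 1005.5 bp; exact permutation p = 0.167 for each, the smallest possible). The high rank of X in length and score was thus seen in replicate 2 and not in replicate 1. With the stretch common to both replicates in place of the replicate 2 length, the median was 513.5 bp on X and 494.5 to 540 bp on the autosomes.

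The overlap itself varied from peak to peak. Of the 380 X peaks, 165 (43.4%) lay wholly inside replicate 1 peaks, a smaller share than on any autosome (48.3% to 55.5%), and the other 215 were covered in part. In 51 of them less than 50% of the length was covered. The smallest overlaps that still met the rule were 6 bp at chrX:10650166-10650651 (score 111) and 7 bp at chrX:7464937-7465266 (score 61.7). Just outside it, chrX:12083410-12083712 (score 69.6) missed the nearest replicate 1 peak by 8 bp and chrX:2431773-2432074 (score 70.3) by 37 bp. Of the 161 replicate 2 X peaks without a replicate 1 overlap, 61 lay within 1 kb of a replicate 1 peak. The 380 peaks touched 355 distinct replicate 1 peaks, of which 47 held 2 of them, 14 held at least 3 and the fullest held 5.

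Peaks on X occurred in runs, and at gaps of up to 5 kb less so than on the autosomes. With another shared peak no more than 5 kb away, measured from end to start, were 244 of the 380 X peaks (64.2%), against 66.8% on IV to 70.2% on I (mean of the autosomes 68.8 ± 1.34%, SD, n = 5). X was the lowest of the 6 chromosomes (X minus the autosomal mean, -4.59 percentage points), at the smallest p that the exact permutation test allows (0.167, before adjustment for the 5 measures compared). X was also the lowest with a gap of 2 kb (54.5%, autosomes 55.8% to 61.7%) but not with one of 10 kb (72.1%, autosomes 71.8% to 76.2%), nor when both replicates had to score 100 or more (57.2%, autosomes 56.3% to 63.9%). With a gap of 1 kb it was not the lowest either (46.8%, autosomes 46.1% to 55.5%). It also lay inside the autosomal range with replicate 2 alone (69.4%, autosomes 67.6% to 73.6%) and replicate 1 alone (86.0%, autosomes 85.6% to 92.0%).

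The median gap between neighbouring X peaks was 13.8 kb, wider than the 6.78 kb of I and the 12.1 kb of IV that bound the autosomes. Of the 379 gaps, 39 were of 0.1 kb or less, 66 of up to 1 kb, 48 of up to 5 kb, 107 of up to 50 kb, 107 of up to 200 kb and 12 wider still. The class from 50 to 200 kb held 28.2% of the X gaps and 20.4% to 22.7% of those on each autosome, and the class above 200 kb held 3.17% against 2.86% to 9.14%. A larger share of the gaps than on any autosome was thus from 50 to 200 kb wide. Its widest gap was 463 kb, from 1627422 to 2090360, followed by 413 kb from 11606322 to 12018961.

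**Figure D3:**
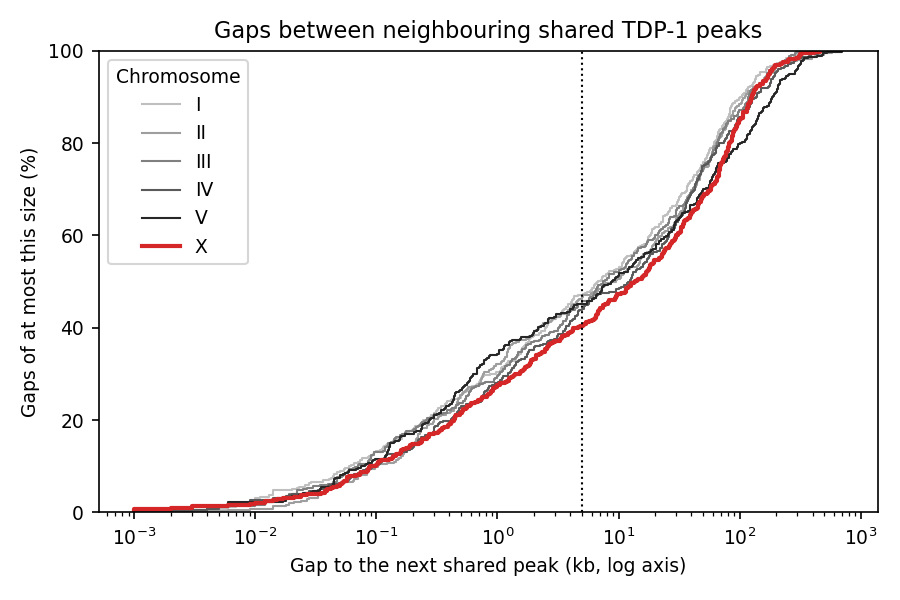
Cumulative percentage of the gaps between neighbouring shared peaks, by gap size in kb (log axis), with 1 line per chromosome (X in red) and a dotted line at the 5 kb used to join peaks into clusters. The X line lies at or near the bottom between 1 and 50 kb, and its median gap is 13.8 kb.

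Joined at gaps of at most 5 kb, the X peaks formed 227 sites: 136 peaks stood alone and 244 fell into 91 clusters. Of these clusters 56 held 2 peaks, 20 held 3 and 15 held 4 or more, and their median span was 3.38 kb. In 27 clusters all peaks overlapped a single replicate 1 peak, so that replicate 1 drew as 1 peak what replicate 2 drew as several. Counted as sites, X had 12.8 per Mb, between the 9.52 of V and the 14.8 of I, and ranked 3 of 6. On X the lone peaks had a median replicate 2 score of 304 and the clustered ones one of 259. On the pooled autosomes the order was the other way round, 217 and 260. The share of peaks at 3100 in replicate 2 followed the same pattern. It was 13.2% of lone peaks (18 peaks) and 9.84% of clustered peaks (24 peaks) on X, against 7.57% and 12.8% on the pooled autosomes. Replicate 1 did not show this reversal. The median score of the overlapping replicate 1 peaks was 708 for lone and 980 for clustered peaks on X, and 644 and 1332 on the pooled autosomes. These differences between X and the autosomes were not tested, and X was not compared with single autosomes.

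The fullest cluster held 12 peaks in 17.0 kb at chrX:12505368-12522411, and peaks covered 51.2% of it. Its replicate 2 scores ran from 66.6 to 1399.5 and none reached 3100, while 4 of the 12 peaks, at its left end, lay on a replicate 1 peak at 3100. Of the last 5 peaks, counted from the left, 4 scored higher in replicate 2 than in replicate 1, among them chrX:12514141-12516952, at 1399.5 against 120.0. Of the 4 clusters with 5 peaks, ordered by their summed replicate 2 score, the first, chrX:12625917-12630904, spanned 4.99 kb, was covered to 93.1% and held 2 adjoining peaks at 3100, with their replicate 1 partner at 2864. The second, chrX:12904407-12919302, spanned 14.9 kb with scores from 92.4 to 3100.

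Clusters at chrX:4214788-4223589 and chrX:109898-113209 held 5 peaks as well, with lower summed scores (1411 and 390, against 6905 and 5041 for those just described). The cluster of 12 and the first 2 clusters of 5 lay between 12 and 13 Mb, in the window of X with the most shared peaks. That window held 39 peaks in 13 sites, 22 of them in these 3 clusters, and 7 at 3100. Among the 17 whole windows of 1 Mb, the median was 22 peaks and the lowest was 9, in the neighbouring window from 11 to 12 Mb, which held the longest peak and most of the second widest gap. Of the 17 windows, 13 held between 15 and 30 peaks.

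Spread over windows, X was among the more even chromosomes. The ratio of variance to mean of the counts per Mb was 2.68 on X, against 2.54 on III to 4.47 on IV. Counted as sites, so that a cluster weighs no more than a lone peak, the ratio was 0.82 on X, the lowest of the 6 (autosomes 0.93 on I to 1.98 on II). With each chromosome cut into 3 equal parts, X held 125, 112 and 143 peaks from left to right, and the mean of its outer parts was above the central count. The ratio of the 2 was below 1 on II (0.63), V (0.84), III (0.87) and IV (0.92) and above it on I (1.26), so that only X and I held more in the outer parts. These are descriptions of 6 chromosomes, chosen after the values were seen and not tested.

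**Figure D4:**
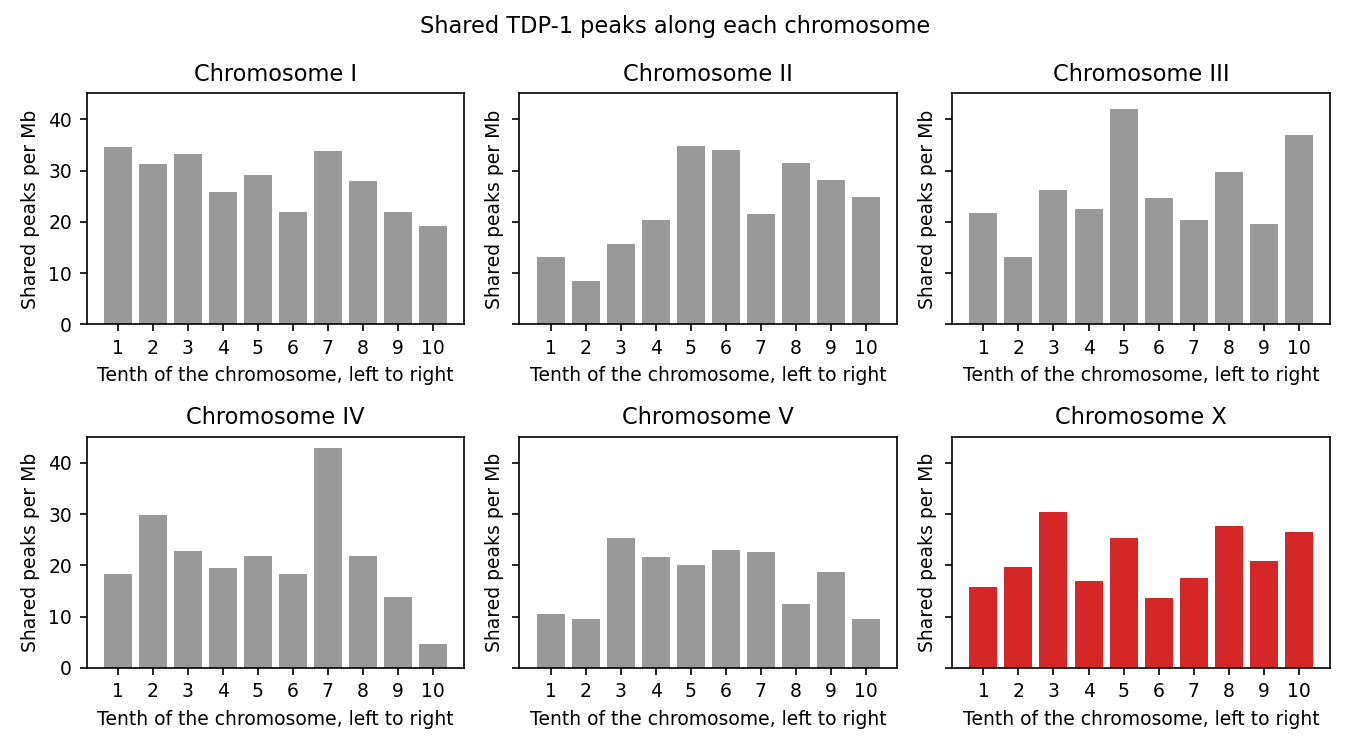
Shared peaks per Mb in 10 equal parts of every chromosome, from left to right (X in red, autosomes in grey). On X the values run from 13.5 in part 6 to 30.5 in part 3, and the highest value of all is on chromosome IV.

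The left end of X was marked by low replicate 2 scores. The first 2 Mb held 28 shared peaks with a median replicate 2 score of 94.7, and 1 of them stood at 3100 in replicate 2, although replicate 1 held 336 peaks there. Replicate 1 did not score all of these peaks low. The replicate 1 scores of the 28 ran from 65.9 to 3100, and the 5 peaks at chrX:109898-113209 lay on a replicate 1 peak at 3100. At the other end, 7 of the 27 peaks between 16 and 17 Mb stood at 3100 in replicate 2, with a median replicate 2 score of 691. Over the 17 windows the number of shared peaks followed the number of replicate 2 peaks (Spearman's rho 0.88) more than that of replicate 1 peaks (0.32), of which every window held more. The windows share the same 2 libraries, and the first relation is partly built in, since shared peaks are replicate 2 peaks.

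The replicate 2 peaks on X that did not qualify were of 2 kinds. The 160 with neither a replicate 1 nor an RNase partner had a median score of 128 and a median length of 480.0 bp, and none reached 3100, although 8 scored 1000 or more. On the autosomes the 754 such peaks had nearly the same medians, 128 and 479 bp. The 7 that overlapped a peak of the RNase-treated library included 4 at 3100. The longest of them measured 12159 bp at chrX:15370206-15382364 and overlapped 3 replicate 1 peaks. It was set aside for an RNase peak of 260.0 bp that scored 55.9, and would otherwise have been the second longest on X. Of the 7, 3 had an RNase peak scoring under 100 and a replicate 2 score of 3100, whereas at chrX:3631299-3631984 the order was the reverse, 153 in replicate 2 and 2930.4 after RNase. Of all 25 RNase peaks on X, 16 overlapped a replicate 1 peak and 5 lay within 5 kb of a shared peak.

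Regions of A-to-I editing, which marks double-stranded RNA, were compared with the peaks because the deposited list gives positions. Of 10 listed regions on X, 7 had coordinates, and none overlapped a shared peak: 0 of 7, which allows a share of up to 42.9%. That limit is 3 divided by the number of regions, a rough approximation for so few. The nearest, in the 3′ UTR of lam-2, a laminin gene, lay 8.45 kb away. On the autosomes 5 of 141 (3.55%) overlapped one. The regions of rncs-1, a noncoding RNA that folds into a long hairpin, and of mab-7 each met a replicate 1 peak but no shared peak.

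Gene positions on the same build were taken from the study's list of genes with altered poly(A) RNA, and nothing else in it was used. Of the 250 X-linked genes placed by this list, 9 (3.60%) held a shared peak, each of them 1, against 115 of 1502 autosomal genes (7.66%), while replicate 1 peaks alone met 52.8% and 57.8%. The list covers 4.17% of X and was drawn from the same poly(A) libraries, so it is neither the whole of the genes under the peaks nor independent of the poly(A) values given below. In tbh-1, which encodes the enzyme that makes octopamine from tyramine, the whole peak (chrX:15501898-15502844, 947 bp) lay inside the gene and scored 3100, with 530 in replicate 1. In vit-2, a yolk protein gene, the whole peak (chrX:5105519-5105821, 303 bp) lay inside too, but scored 50.7 in replicate 2 and 3100 in replicate 1. The others met a peak in part: lfi-1 and col-181 (3100 each), F53B3.6 (2272), dhs-29 (736), F33C8.4 (554), C16E9.27 (398) and wrt-2 (237).

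In the J2-IP, 4 of the 9 genes had values and 2 passed the filter for double-stranded RNA, vit-2 and lfi-1. The wild-type J2-IP libraries held 19650, 18623 and 19436 normalized counts of vit-2, the tdp-1(ok803) ones 27825, 26580 and 27373, with 7583 and 6327 in the inputs. The mutant libraries were all above the wild-type ones (a log2 difference of 0.50 with a standard error of 0.09, limma adjusted p = 0.0085). Values of lfi-1, which encodes a protein that interacts with LIN-5, were 467, 467 and 484 against 568, 498 and 504. This gene passed the filter of 1.5 times the wild-type input through its mutant libraries alone (mean 1.58 times that input, and under 1.5 times in wild type), so the filter favours higher mutant values and no difference is read from it. Of the 3962 genes tested, 42.7% were called higher and 8.13% lower in tdp-1(ok803), and the median change over all of them was 0.22. With quantile scaling that median was -0.02, 862 genes were called higher and 1033 lower in place of 1693 and 322, and the sign of vit-2 turned, to -0.23 (limma adjusted p = 0.46). The direction of vit-2 thus depended on the scaling. Reads of vit-2 can be shared with the closely similar vitellogenin genes. The cuticle collagen gene col-181 (447, 450 and 432 against 848, 707 and 677) and tbh-1 (23, 18 and 23 against 28, 26 and 25) were below the filter and were not tested.

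In poly(A) RNA none of the 7 genes tested passed the threshold, nor did any of the 15807 genes tested (0% higher and 0% lower by limma, with 413 genes at an unadjusted p under 0.05; edgeR 0 and DESeq2 17). The study's list counts these genes as altered, by edgeR and, in its figure legend, on fewer replicates of each genotype than used here. The wild-type libraries held 37813, 147654 and 154610 normalized counts of vit-2 and the tdp-1(ok803) ones 14585, 35403 and 43173, which overlap. Its log2 difference was -1.76 with a standard error of 0.63 (limma adjusted p = 1.00). For col-181 they were 55136, 90037 and 90150 against 21186, 52511 and 53765, and for dhs-29, a short-chain dehydrogenase gene, 2220, 1560 and 1685 against 2621, 2708 and 2672, neither of which overlap. The log2 differences were -0.97 (standard error 0.42) and 0.57 (standard error 0.23), each with a limma adjusted p of 1.00. The other 4 lay between -1.24 for tbh-1 and 0.98 for F53B3.6, with F33C8.4 at 0.64 and wrt-2, a hedgehog-related gene, at 0.75. In this table lfi-1 and C16E9.27 are listed at 0 in all 6 libraries. Each of the 7 genes moved the same way in all 3 pairs of same-numbered libraries, vit-2, col-181 and tbh-1 lower and the other 4 higher in tdp-1(ok803). The genes came from a list of altered poly(A) RNA drawn from these libraries, which favours a shared direction. The share over all genes was not counted, so nothing is read from these directions. With the replicate pair as a block the limma adjusted p was 0.090 for vit-2 and 0.26 to 0.40 for the others, so none passed the threshold.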

How the data were processed

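The authors aligned the ChIP reads to WS220 with Bowtie and called peaks in each library with MACS (bandwidth 300, stated cut-off of 0.01; the 2 replicates at 2-fold to 30-fold over the RNase-treated library, and that library against genomic sequencing), and deposited each peak with its score (the log10 p-value times minus 10). Scores under 50 do not occur in these files. The deposited poly(A) values are gene counts divided by size factors (a normalized signal), and 100% of them came out as whole reads (tolerance 0.01 read), 65546397 to 107297985 reads per library. The deposited J2-IP and input values are normalized counts rounded to whole numbers, used as a score. The deposited list of edited regions was used for positions only, and its columns of editing comparisons were not used. The submitters' processing notes name TopHat2 2.0.10, HTSeq 0.5.4p3 and DESeq 1.16 for the RNA.

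Peaks were intersected in Python 3.11.15 with pandas 2.3.3, and start positions are counted from 1. Chromosomes were compared by an exact permutation test over 6 chromosomes. Genes were tested with limma 3.58.1 (R 4.3.3) on log2(value + 1) with eBayes trend, and adjusted after Benjamini and Hochberg. For the J2-IP, a gene had to be above 0 in the 3 libraries of either genotype, with their mean exceeding 1.5 times the value of the wild-type input (p under 0.05, adjusted p under 0.1), and 8598 genes could be joined to the input by name with the RefSeq gene table of WBcel235, used for names only. Poly(A) genes needed 10 in at least 3 libraries (adjusted p under 0.05). The scripts were tested on simulated data. On the recovered reads, edgeR 4.0.16 called 0 genes and DESeq2 1.42.0 called 17. Same-numbered libraries of both genotypes deviated together across genes (Pearson's r 0.66, 0.44 and 0.35 in poly(A), 0.37, 0.78 and 0.53 in J2-IP), so a fit with the replicate pair as a block was also run.

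The regions, lists and tests were chosen with earlier results of these data known. Peaks named are the 10 with the highest replicate 2 score, the 5 longest, the 3 clusters with most peaks (ties by summed score) and the 3 with the lowest score; others were named after their values were seen. Genes named are X genes whose listed span met a shared peak, and lam-2, rncs-1 and mab-7, whose edited regions met none and which were named after their values were seen. The total RNA libraries were not analysed here. Where nothing says that libraries came from separate cultures, p-values measure the spread between these samples only.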

Additional observations from a re-analysis of the deposited data

How the results depend on the processing

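The density of shared X peaks kept its place below the autosomal mean under all 5 alternatives, and the share within 5 kb of another did so under all 7. The share of replicate 2 peaks that were shared rose above the autosomal mean with a score of at least 100 in both replicates (70.6%) and when counted from replicate 1 (14.2%). The median length fell below it with the stretch common to both replicates (513.5 bp) and the median score with the replicate 1 score (853). With only 1 of the replicates used, the density was 30.5 and 144 per Mb, the median length 600.5 and 862 bp and the median score 204 and 155, and without replicate 2 both medians lay below the autosomal mean. The cause was not tested, and no p fell below 0.167. A density over the lengths of a reference assembly was not run.

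Without a filter the J2-IP comparison called 4468 genes, as more were tested. With 1 library left out it called 1640 to 2049, and the poly(A) comparison 0. With a replicate block, 2015 J2-IP genes and 1 poly(A) gene were called, and no gene named here changed its call. DESeq2 called 17 poly(A) genes. Quantile scaling gave vit-2 (-0.23) and lfi-1 (-0.19, a gene that passed the filter through its mutant libraries alone) the opposite sign in the J2-IP. Under that scaling lfi-1 met the calling threshold as lower (limma adjusted p = 0.029) and vit-2 no longer met it (limma adjusted p = 0.46). The depth of the ChIP is unknown, so weak peaks missed in 1 replicate cannot be told apart from absent ones.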
